A study of Arabidopsis thaliana with 59 samples.

Results

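The Aux/IAA and ARF genes of Arabidopsis thaliana were examined in rosette leaves of plants kept in drying or in wet soil. The set was a fixed list of 44 loci, 29 for Aux/IAA proteins and 15 for auxin response factors (ARFs), matched by locus name to the rows of the deposited table. Of these, 43 loci had a row among the 20728 loci of the table, 28 of them Aux/IAA and 15 ARF. IAA15 (AT1G80390) had none and was not analysed here.

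Auxin acts through a short chain. Aux/IAA proteins hold ARFs, which are DNA-binding transcription factors, in an inactive complex with the TOPLESS corepressor. Auxin joins Aux/IAA proteins to the F-box receptors TIR1 and AFB, which marks them for breakdown and frees the ARFs. Many Aux/IAA genes are themselves switched on by auxin, so the family forms a negative feedback loop. ARFs whose middle region is rich in glutamine activate transcription, and the others are mostly repressors.

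The leaves came from 10 spring-annual accessions, that is, inbred lines: Col, Ler, Bur-0, SQ-8, Ts-1, NFA-10, HR-5, Ws-2, KNOX-18 and CIBC-17. The labels name no transgene. Plants grew singly in pots of about 150 ml ceramic medium, with 10 h of light a day at 330 µmol m-2 s-1, 23 C in light, 18 C in darkness and 60% relative humidity, and were fed with nutrient solution. Dry pots were brought down day by day to about 50% of water remaining on day 5, and wet pots were kept near 90%. The labels number 3 biological replicates per accession and watering level, and KNOX-18 dry had replicates 1 and 3 only, which left 29 dry and 30 wet arrays. No age of the plants and no number of rosettes per sample is given in the sources used here.

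Values are log2 expression per locus, so a difference of 1 is a factor of 2. Array medians lay between 5.496 and 5.621. One array, Col wet 3, carries the seed stock label of Ws-2 while its title and ecotype say Col. Over 1000 loci chosen without it, its correlation with the other Col arrays was 0.843 and with Ws-2 0.0110, and 59 of 59 arrays were closest to their own accession. Of 5 listed leaf mesophyll markers 1 was measured, the carbonic anhydrase gene CA1, with a mean of 11.13. The 12 measured root, flower and shoot meristem markers had means between 3.51 and 5.05, and 0 of them were called for drying. Array values of different genes cannot be set against each other, so these levels do not test the labelled tissue. CA1 was 0.87 ± 0.24 higher in dry leaves (limma, adjusted p = 0.00480). Of 3 measured guard cell genes KAT1 was 0.39 ± 0.09 higher (adjusted p = 0.000516), and FMA (0.04) and MYB60 (-0.06) were not called. Of 4 measured vascular genes the xylem gene XCP1 was lower (-0.23 ± 0.05, adjusted p = 0.00112). HB-8 (0.13), SUC2 (0.06) and VND7 (-0.02) were not called. The part of these marker genes in the results below was not tested. In whole leaves, a change in the share of a cell type and a change in RNA per cell cannot be told apart.

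Probe brightness differs between genes, so values of different genes are not ranked here. A group of 6 Aux/IAA genes, IAA20, IAA30, IAA31, IAA32, IAA33 and IAA34, averaged between 3.77 and 4.49, near the bottom of a scale that runs from 3.07 to 14.06. They encode Aux/IAA proteins that lack the usual degradation motif or part of the domains. The table holds no detection measure, so whether these genes were expressed was not tested. By limma 0 of the 6 were called for drying, accession or replicate number. The other 22 measured Aux/IAA genes averaged up to 10.39 and the 15 ARF genes between 4.64 and 8.20.

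Drying changed 13 of the 43 measured genes when dry minus wet was averaged over the accessions (limma, adjusted p under 0.05 over all loci), which is 30.2% against 29.3% of all loci. As a share of the set, this count stands at the level of the whole table. Among Aux/IAA genes 4 of 28 were higher in dry leaves (IAA5, IAA8, IAA14 and IAA16) and 1 was lower (IAA17), with a median log2 difference of -0.02. Among ARF genes 6 of 15 were higher (ARF1, ARF2, ARF3, ARF9, ARF11 and ARF18) and 2 were lower (ARF7 and ARF10), with a median of 0.02. Over all loci, 15.5% were higher and 13.8% lower, and the median difference was -0.003. The sign of the difference was the same in each of the 10 accessions for 9 of the 43 genes, against 11.0% of all loci.

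**Figure D1:**
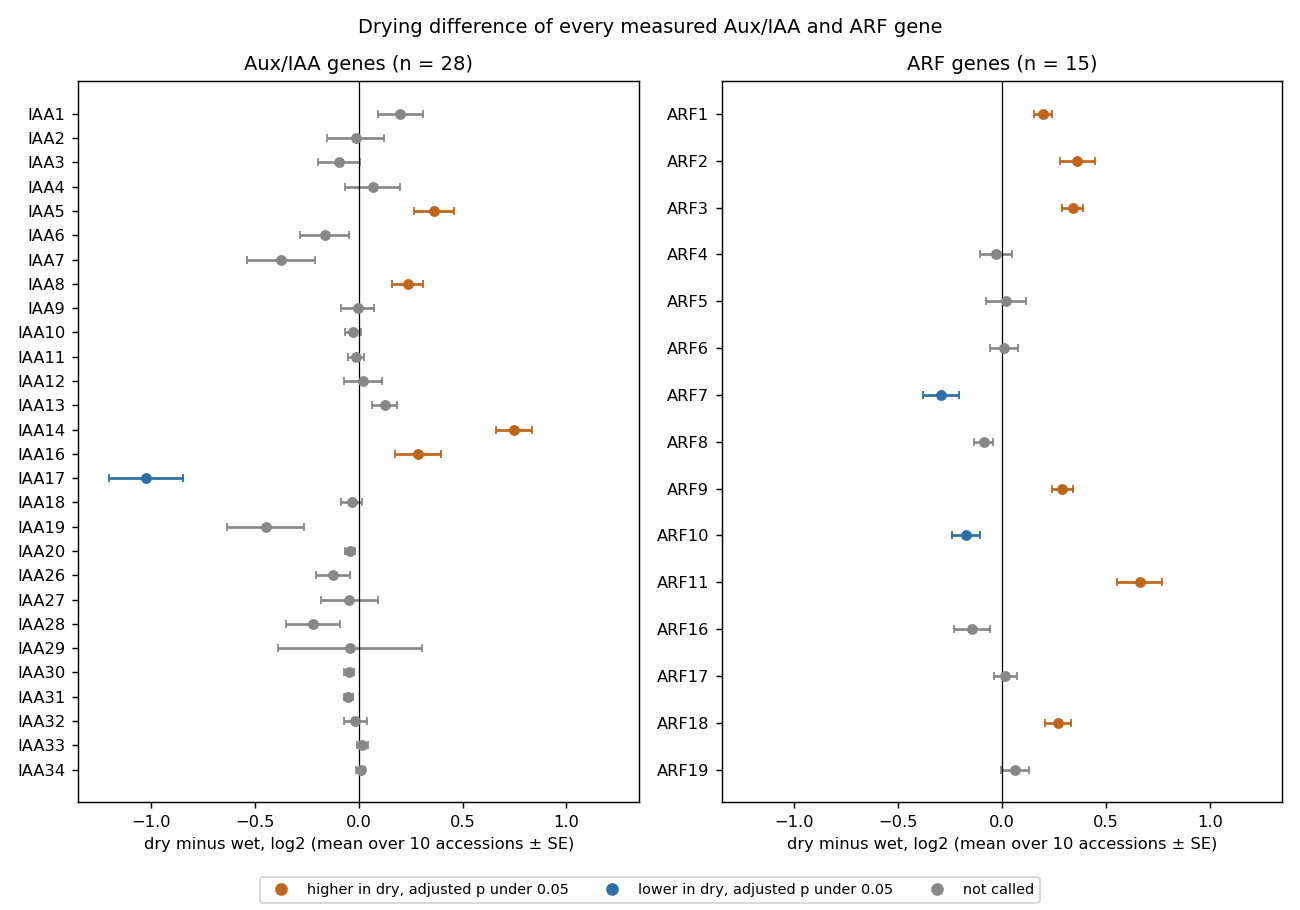
Mean log2 difference dry minus wet over 10 accessions, with its standard error, for the 28 measured Aux/IAA genes (left) and 15 ARF genes (right); orange points were higher and blue points lower in dry leaves at an adjusted p under 0.05. IAA17 at -1.02 lies farthest to the left and IAA14 at 0.75 farthest to the right, and most Aux/IAA genes lie close to 0.

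IAA17 (AT1G04250, also called AXR3) showed the largest difference of the measured genes in the set. It encodes an Aux/IAA repressor known from dominant mutants with altered root gravity response and leaf shape. Its values ran from 5.76 through a median of 7.52 to 9.49 on dry arrays, and from 6.44 through 8.50 to 9.80 on wet arrays. These ranges overlapped over the whole set of arrays, and the dry mean was below the wet mean in 10 of 10 accessions. The mean difference was -1.02 ± 0.18 (adjusted p = 1.78e-05), a level 2.03-fold higher in wet leaves, and 28 of 29 pairs of arrays with the same replicate number had the lower value in the dry array.

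Among accessions, the IAA17 difference ranged from -1.76 ± 0.55 in Ler to -0.12 ± 0.55 in NFA-10. In Ler the dry arrays read 6.88, 5.98 and 5.76 and the wet arrays 8.65, 8.06 and 7.18. In SQ-8 the dry arrays read 8.11, 6.55 and 6.15 and the wet arrays 8.63, 8.38 and 8.32. All dry arrays lay below all wet arrays in 5 accessions, Bur-0, HR-5, KNOX-18, SQ-8 and Ler; over all loci, dry and wet arrays of an accession failed to overlap in 17.8% of cases. No single accession passed the test for IAA17, with Ler at an adjusted p of 0.135, and the SD among 3 dry arrays reached 1.05 in CIBC-17.

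IAA14 (AT4G14550, also called SOLITARY-ROOT) moved the other way. The protein is known for blocking lateral root formation when it cannot be degraded. Dry arrays ran from 5.69 through a median of 6.53 to 7.44, and wet arrays from 4.90 through 5.81 to 6.96. The gene was higher in dry leaves in 10 of 10 accessions and in 27 of 29 same-numbered pairs, with a mean difference of 0.75 ± 0.09 (adjusted p = 1.41e-08), or 1.68-fold. All dry arrays lay above all wet arrays in 6 accessions. Col gave the largest difference, 1.21 ± 0.27 (adjusted p = 0.0195), with dry arrays at 6.94, 6.30 and 6.28 and wet arrays at 5.23, 5.50 and 5.15. Without Col wet 3, the array with the conflicting stock label, this single-accession call was lost, as it also was without Col wet 1 or Col dry 1.

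IAA5 (AT1G15580), IAA8 (AT2G22670) and IAA16 (AT3G04730) rose by smaller amounts. IAA5 ran from 5.01 through 5.66 to 7.03 on dry arrays and from 4.68 through 5.32 to 5.99 on wet arrays, and its difference was 0.36 ± 0.10 (adjusted p = 0.00338), higher in 9 of 10 accessions. IAA8 ran from 9.70 through 10.24 to 10.78 on dry arrays and from 9.15 through 10.06 to 10.60 on wet arrays. Its difference was 0.24 ± 0.07 (adjusted p = 0.0131), and it too was higher in 9 accessions. IAA16, whose stabilised form is known to reduce responses to auxin and abscisic acid, differed by 0.29 ± 0.11 (adjusted p = 0.0472; higher in 8 accessions). It ran from 9.38 through 10.63 to 11.04 on dry arrays and from 9.15 through 10.42 to 10.88 on wet arrays. That call sits at the threshold: it was lost without any 1 of 32 arrays, at an adjusted p of up to 0.107. These were wet 1 of each accession, Ts-1 dry 1, dry 2 of each but Ts-1 (KNOX-18 has none), dry 3 of each but Col, and wet 3 of Ts-1, KNOX-18, Ler and Col.

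IAA5, IAA6 and IAA19 are known together from mutant plants that tolerate drought poorly. Of them IAA5 alone was called in the main fit, which has no term for the replicate number. IAA6 (AT1G52830) differed by -0.16 ± 0.12 (adjusted p = 0.318). IAA19 (AT3G15540), known from hypocotyl growth curvature, differed by -0.45 ± 0.18 (adjusted p = 0.0622), and its dry mean was below its wet mean in 10 of 10 accessions. IAA7 (AT3G23050, AXR2) differed by -0.38 ± 0.16 (adjusted p = 0.0802, lower in 9 accessions). With the replicate number as a term in the limma model, IAA19 (adjusted p = 0.0105) and IAA7 (adjusted p = 0.00690) were called lower, and IAA6 was not (adjusted p = 0.209). The count of 1 lower Aux/IAA gene was sensitive to single arrays. It became 4 without KNOX-18 dry 3 and 3 without HR-5 wet 1 or NFA-10 wet 1. It was 2 without any of HR-5 dry 2, Ws-2, Bur-0, NFA-10 or Ler dry 3, Bur-0, CIBC-17 or SQ-8 wet 1, or Ler wet 3.

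The uncalled IAA4, IAA9, IAA10, IAA12, IAA13, IAA18, IAA26, IAA27 and IAA28 had differences between -0.22 (IAA28) and 0.12 (IAA13).

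The genome holds Aux/IAA genes in adjacent pairs, with 0 protein-coding genes between the members in the reference annotation. In 3 such pairs one member was set beside the other, as a description with no test. IAA14 differed by 0.75 and its neighbour IAA1 (AT4G14560) by 0.20 ± 0.11 (adjusted p = 0.171), and dry minus wet was larger for IAA14 in 9 of 10 accessions. IAA17 differed by -1.02 and its neighbour IAA3 (AT1G04240, SHY2) by -0.09 ± 0.10 (adjusted p = 0.525), and dry minus wet was lower for IAA17 in 10 of 10. IAA7 differed by -0.38 and its neighbour IAA2 (AT3G23030) by -0.01 ± 0.14 (adjusted p = 0.954).

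**Figure D2:**
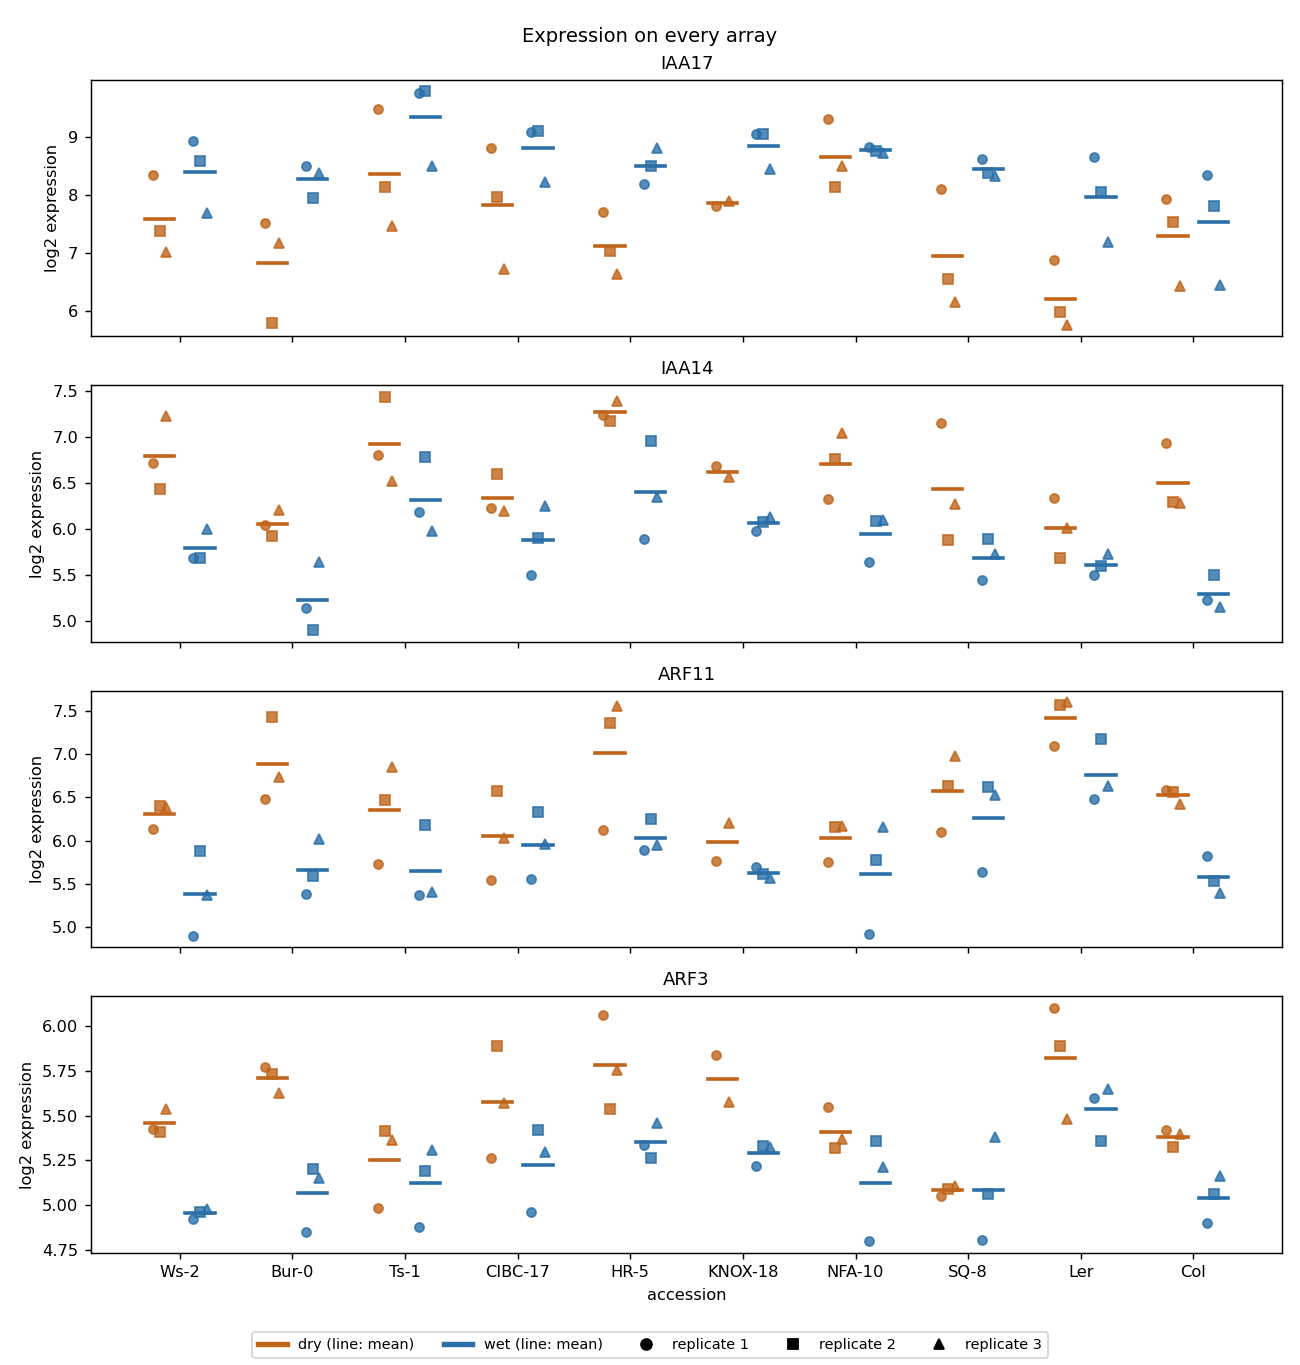
Log2 expression of IAA17, IAA14, ARF11 and ARF3 on each array, by accession, with dry arrays (orange) left of wet arrays (blue), bars at group means and symbols for the replicate number. IAA17 is lower, and IAA14, ARF11 and ARF3 are higher, in the dry mean of each of 10 accessions, although the dry and wet means of ARF3 in SQ-8 differ by 0.0007.

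The ARFs that rose belong to those with a repressing middle region. Of 10 such genes, 6 were higher in dry leaves and 1 was lower, with a median difference of 0.23, and of the 5 with an activating middle region (ARF5, ARF6, ARF7, ARF8 and ARF19) 0 were higher and 1 was lower, with a median of 0.01. These classes were taken from textbook knowledge after values had been seen, so the counts describe the data and were not tested against each other.

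ARF11 (AT2G46530) had the largest difference of the ARFs. It belongs to the ARF1 group of repressing ARFs. Dry arrays ran from 5.54 through a median of 6.47 to 7.60, and wet arrays from 4.90 through 5.80 to 7.18. Its difference was 0.66 ± 0.11 (adjusted p = 7.99e-06), or 1.58-fold, higher in 10 of 10 accessions and in 28 of 29 same-numbered pairs. Bur-0 showed 1.23 ± 0.34 (adjusted p = 0.0407), with dry arrays at 6.49, 7.44 and 6.74 and wet arrays at 5.38, 5.58 and 6.02, while CIBC-17 showed 0.10 ± 0.34.

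ARF3 (AT2G33860, ETTIN), which patterns the gynoecium and the lower face of leaves and lacks the domain that binds Aux/IAA proteins, was 0.34 ± 0.05 higher (adjusted p = 1.61e-06). Dry arrays ran from 4.98 through 5.48 to 6.10 and wet arrays from 4.80 through 5.20 to 5.65. The dry mean was the higher one in 10 accessions, with all dry above all wet arrays in 5 of them, but the difference in SQ-8 was only 0.0007 ± 0.16. ARF2 (AT5G62000), a repressor known from seed size, leaf senescence and organ shedding, was 0.36 ± 0.08 higher (adjusted p = 0.000891; 10 of 10 accessions). It ran from 7.74 through 8.41 to 9.22 on dry arrays and from 7.18 through 8.07 to 8.61 on wet arrays. ARF2 and ARF3 are, with ARF4, the known targets of the trans-acting small RNAs named tasiR-ARF. ARF4 (AT5G60450) differed by -0.03 ± 0.08 (adjusted p = 0.821).

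ARF9 (AT4G23980) was 0.29 ± 0.05 higher (adjusted p = 1.75e-05), and ARF1 (AT1G59750), a repressor that acts with ARF2 in flower ageing, 0.20 ± 0.04 (adjusted p = 0.000272). Both were higher in 10 of 10 accessions. ARF9 ran from 5.51 through 6.09 to 6.80 on dry arrays and from 5.53 through 5.83 to 6.19 on wet arrays. ARF1 ran from 6.41 through 6.58 to 7.04 on dry arrays and from 6.13 through 6.43 to 6.87 on wet arrays. Dry and wet ranges overlapped for both. Among accessions the difference of ARF9 ran from 0.06 in NFA-10 to 0.69 in Ler. ARF18 (AT3G61830) was 0.27 ± 0.06 higher (adjusted p = 0.000981), in 9 of 10 accessions, and in SQ-8 it differed by -0.01. It ran from 6.27 through 6.78 to 7.58 on dry arrays and from 5.99 through 6.50 to 7.12 on wet arrays.

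Lower values were found for ARF7 and ARF10. ARF7 (AT5G20730, NPH4) is an activator needed for hypocotyl phototropism and, with ARF19, for lateral roots. Its dry arrays ran from 6.73 through 7.23 to 7.60 and its wet arrays from 6.83 through 7.38 to 8.27. The difference was -0.29 ± 0.09 (adjusted p = 0.00817), lower in 10 of 10 accessions and in 24 of 29 same-numbered pairs. ARF19 (AT1G19220) differed by 0.06 ± 0.07 (adjusted p = 0.528). ARF10 (AT2G28350), a target of the microRNA miR160 as ARF16 and ARF17 are, differed by -0.17 ± 0.07 (adjusted p = 0.0498). It ran from 6.20 through 6.54 to 7.13 on dry arrays and from 6.17 through 6.69 to 7.31 on wet arrays. This call too sits at the threshold and was lost without any 1 of 38 arrays (adjusted p up to 0.0868), which left ARF7 as the 1 lower ARF. These were wet 1 and dry 3 of each accession, dry 1 of Ts-1, CIBC-17, HR-5, Ler and Col, dry 2 of Ws-2, Bur-0, CIBC-17, HR-5, NFA-10 and SQ-8, and wet 2 of each but CIBC-17, SQ-8 and Col. ARF16 differed by -0.15 and ARF17 by 0.02. ARF6 and ARF8, activators of flower maturation and targets of miR167, differed by 0.01 and -0.09, and ARF5 (MONOPTEROS), which sets up the embryonic root and veins, by 0.02. None of these passed the test.

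Within single accessions few genes passed. Bur-0 gave 3 of 43 against 2.72% of all loci: IAA11 at 0.45, ARF3 at 0.65 and ARF11 at 1.23. SQ-8 gave 2 against 4.95%, IAA11 at -0.40 and ARF16 at -1.01. Ler gave 1 against 0.704%, ARF9 at 0.69, and Col 1 against 0.608%, IAA14 at 1.21. The remaining 6 accessions gave 0. Their background shares were 0.878% in Ws-2, 0.367% in Ts-1, 0.0627% in CIBC-17, 0.651% in HR-5, 0.13% in KNOX-18 and 0.154% in NFA-10. At an unadjusted p under 0.05 in limma, 4 of 15 ARF and 2 of 28 Aux/IAA genes were higher in Ws-2, against 6.55% of all loci, and 0 and 1 were lower, against 5.21%. In HR-5, 6 ARF and 1 Aux/IAA genes were higher, against 6.75% of all loci, and 0 and 1 were lower, against 5.07%. In Ts-1, 2 ARF and 1 Aux/IAA genes were higher (5.04% of all loci) and 0 and 1 lower (4.79%). In CIBC-17, 1 ARF and 0 Aux/IAA genes were higher (4.31%) and 0 and 0 lower (3.34%). In KNOX-18, 1 ARF and 1 Aux/IAA genes were higher (4.59%) and 2 and 0 lower (3.53%). In NFA-10, 0 ARF and 1 Aux/IAA genes were higher (5.65%) and 1 and 1 lower (7.91%).

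Most of these single-accession calls rest on single arrays. In Bur-0 the count was 0 without Bur-0 dry 2 or wet 1 and 1 without Bur-0 dry 1. In SQ-8 it was 0 without SQ-8 dry 3, wet 1 or wet 3, 1 without dry 2 and 4 without wet 2. In Ler it was 0 without Ler dry 1, dry 2, wet 2 or wet 3. In HR-5 it was 1 without HR-5 dry 1, in NFA-10 1 without NFA-10 wet 3, and in Ws-2 1 without any of SQ-8 dry 1, Ts-1 or SQ-8 dry 2, or HR-5 wet 1 or wet 2.

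Set side by side, the families differed most in Bur-0, HR-5 and Ler. In Bur-0 the median difference was 0.34 for the 15 ARF genes and 0.08 for the 28 Aux/IAA genes, and 13 ARF genes had the higher value in dry leaves. In HR-5 the medians were 0.30 for ARF and 0.03 for Aux/IAA, with 12 ARF genes above 0. In Ler they were 0.23 and -0.06, with 10 ARF genes and 7 Aux/IAA genes above 0. Ws-2 also had 13 ARF genes above 0, with medians of 0.20 for ARF and 0.10 for Aux/IAA. SQ-8 went the other way in both families, with medians of -0.18 for ARF and -0.20 for Aux/IAA and 10 of 15 and 19 of 28 genes below 0. KNOX-18 and NFA-10 had both medians below 0, at -0.09 and -0.11 in KNOX-18 and -0.08 and -0.03 in NFA-10. The medians for ARF and Aux/IAA were 0.13 and -0.05 in Ts-1, 0.01 and 0.01 in CIBC-17, and 0.11 and 0.05 in Col. Of all loci, 50.1% lay above 0 in Bur-0, 48.5% in HR-5, 47.5% in Ler, 51.0% in Ws-2 and 50.4% in SQ-8. The median over all loci lay between -0.02 and 0.02 in each accession, and no test of one family against the other was made.

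**Figure D3:**
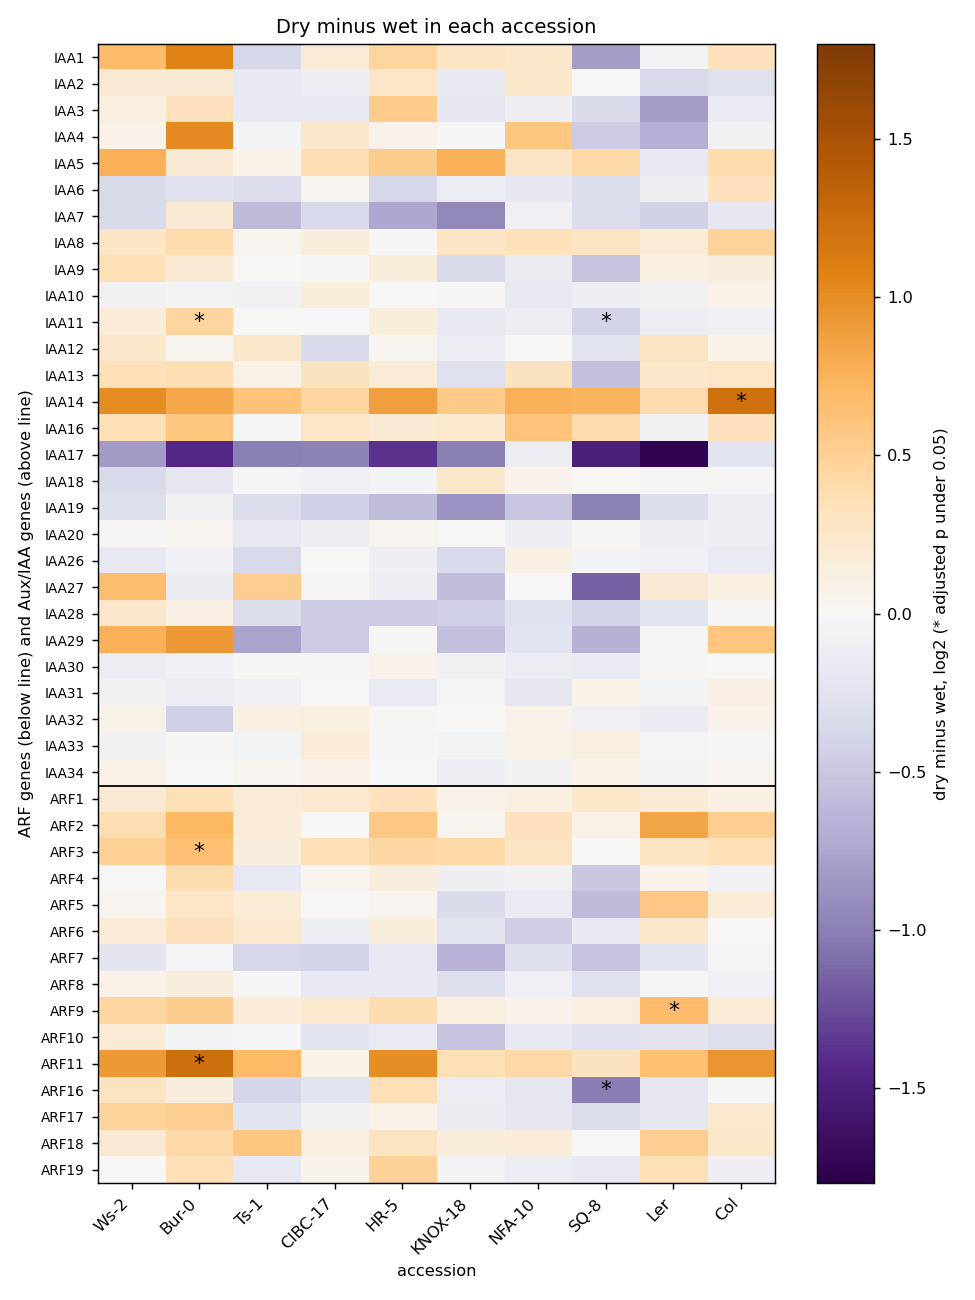
Log2 difference dry minus wet for each of the 43 measured genes (rows, Aux/IAA above the line and ARF below it) in each of 10 accessions (columns), orange for higher and purple for lower in dry leaves, with stars at an adjusted p under 0.05. The IAA17 row is purple throughout, the IAA14 and ARF11 rows are orange throughout, and the SQ-8 column is mostly purple where the Bur-0 column is mostly orange.

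Whether the drying difference varied among accessions was tested directly by the interaction. It was called for 0 of 43 genes by limma, against 0.270% of all loci, with a smallest adjusted p of 0.219 for IAA11 (AT4G28640). At an unadjusted p under 0.05 there were 4 genes (IAA1, IAA11, IAA13 and ARF17). The share of all loci at that unadjusted threshold was not taken, so these 4 are not read as standing out. With estimated array weights 5 genes were called, and the share of all loci in that fit was not taken. Differences of IAA1 ran from -0.80 in SQ-8 to 1.08 in Bur-0, of IAA13 (AT2G33310) from -0.55 in SQ-8 to 0.37 in Bur-0, and of ARF17 (AT1G77850) from -0.30 in SQ-8 to 0.52 in Bur-0. None of these single-accession values passed its own test.

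Levels differed among accessions more often. The accession F test called 23 of the 43 genes, 14 Aux/IAA and 9 ARF, or 53.5% against 41.3% of all loci. The median range between the highest and the lowest accession mean was 0.72 over Aux/IAA genes and 0.51 over ARF genes. Whether sequence differences under the probes lowered the signal in some accessions was not tested.

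IAA7 varied most among the called genes. Its mean was 11.20 in Ts-1 and 10.58 in the next accession, HR-5, against 9.46 in Bur-0 and 8.64 in Ler, the lowest (range 2.56, adjusted p = 5.00e-05). In Ts-1 the dry arrays read 11.09, 10.69 and 10.93 and the wet arrays 11.03, 12.01 and 11.47. In Ler the dry arrays read 8.20, 7.92 and 9.17 and the wet arrays 8.52, 9.34 and 8.68, so the arrays of these accessions did not overlap. The means of Ws-2, KNOX-18, NFA-10, SQ-8 and Col lay between 10.00 and 10.26, closer together than the SD within most groups.

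Averaged over dry and wet, IAA17 was likewise highest in Ts-1 (8.86) and lowest in Ler (7.08), with an adjusted p of 0.00242. NFA-10 at 8.72 stood next to Ts-1 and Col at 7.41 next to Ler, gaps smaller than the spread between replicates. IAA3 (range 1.18, adjusted p = 0.000847) and IAA6 (range 1.07, adjusted p = 0.00563) were also highest in Ts-1, at 7.27 and 7.58. IAA3 was lowest in Bur-0 at 6.09 and IAA6 in CIBC-17 at 6.51.

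IAA1 averaged 8.35 in Ws-2 and 7.06 in Bur-0 (adjusted p = 0.000178), and IAA14 6.84 in HR-5 and 5.65 in Bur-0 (adjusted p = 3.49e-05). ARF11 averaged 7.09 in Ler and 6.52 in HR-5, against 5.81 in KNOX-18 (range 1.29, adjusted p = 0.000346). IAA27 (AT4G29080) averaged 9.10 in HR-5 and 7.93 in SQ-8 (adjusted p = 0.0177). That call was lost without SQ-8 wet 2 (adjusted p = 0.0551), and the 3 dry arrays of SQ-8 read 7.15, 7.61 and 7.30 against 8.37, 7.74 and 9.44 in its wet arrays.

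Of the 23 called genes, Ler had the highest mean for 7, ARF3, ARF4, ARF9, ARF11, ARF17, ARF18 and IAA11. Ts-1 had the highest mean for 6, all Aux/IAA genes (IAA3, IAA6, IAA7, IAA9, IAA17 and IAA26), and the lowest for 4. SQ-8 had the lowest mean for 7 (IAA11, IAA13, IAA26, IAA27, ARF3, ARF8 and ARF16) and the highest for 0. These means average dry and wet leaves. In wet leaves alone, only IAA26 of the 7 was lowest in SQ-8 (6.88). There IAA27 averaged 8.52 in SQ-8 against 8.16 in Col, and ARF16 6.68 against 6.21 in Col. Ler was highest in wet leaves for its 7 genes except ARF9 (5.90 against 6.07 in SQ-8) and ARF18 (6.72 against 6.75 in HR-5). These counts of highest and lowest means are a description with no test. The same counts over all loci were not taken, so they do not set the members apart.

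**Figure D4:**
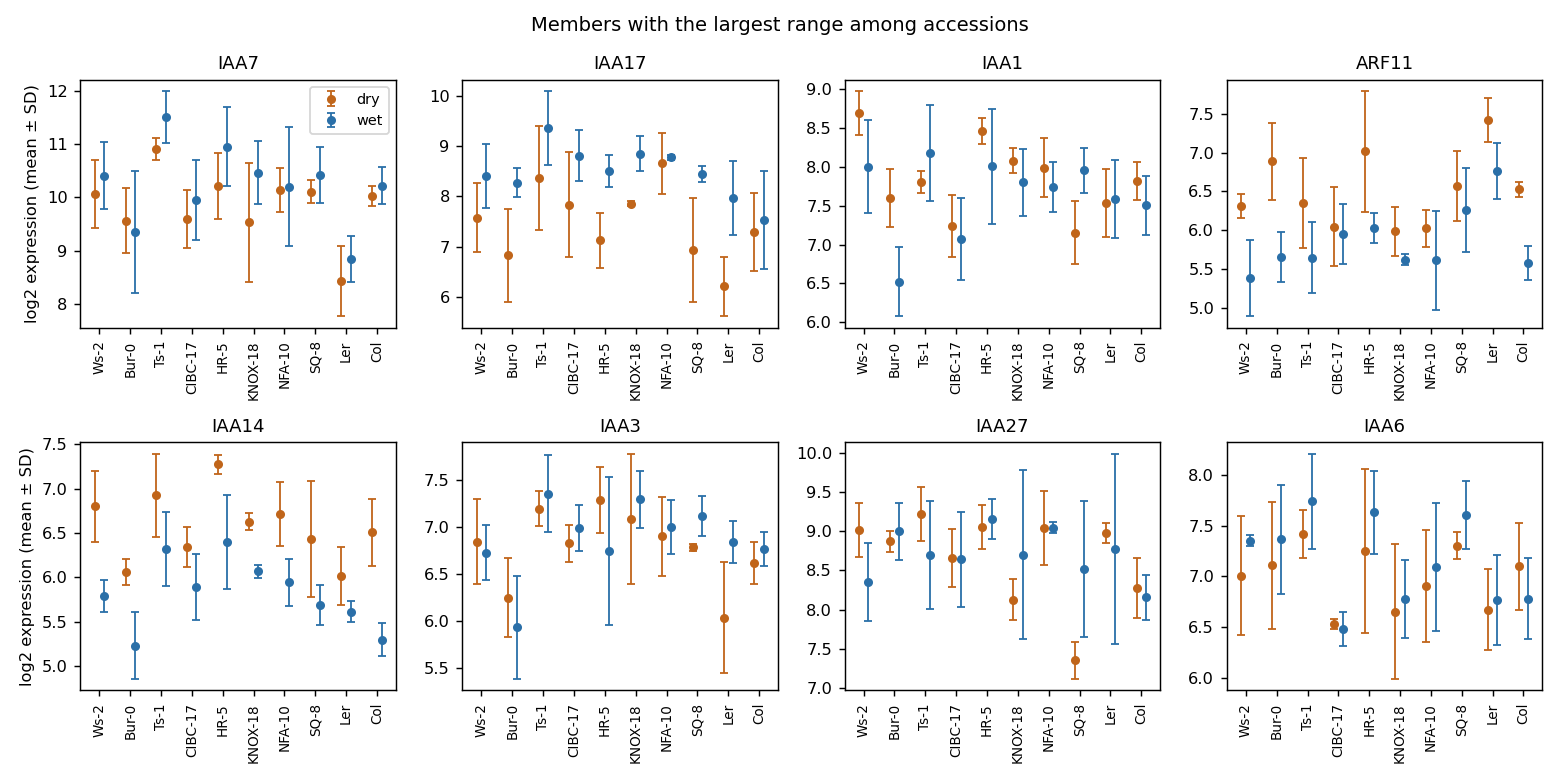
Mean log2 expression ± SD of 3 arrays (2 in KNOX-18 dry) in each accession, dry (orange) left of wet (blue), for the 8 called genes with the largest range among accession means. IAA7 is lowest in Ler and highest in Ts-1, and ARF11 highest in Ler, in both dry and wet leaves, while IAA17 is highest in NFA-10 (8.66) and lowest in Ler (6.20) in dry leaves and highest in Ts-1 (9.36) and lowest in Col (7.53) in wet leaves.

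Replicate numbers recur in every group, and the labels do not say what they stand for. Values moved with the number in 22 of 43 genes (limma F test in a fit with accession, watering and number, adjusted p under 0.05), 51.2% against 30.0% of all loci, with 20, 19 and 20 arrays for numbers 1, 2 and 3. Of the 12 Aux/IAA genes called, 9 had the larger value in number 3 than in number 1 and 3 the smaller, and of the 10 ARF genes 3 had the larger and 7 the smaller. The share of all loci in each direction was not taken, so this split is not read as particular to the families.

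IAA29 (AT4G32280), a gene known to be switched on by light-regulated PIF factors, moved most. It averaged 6.12, 8.15 and 8.08 in numbers 1, 2 and 3 (number 3 minus number 1 1.95 ± 0.22, adjusted p = 2.41e-10). Its number 1 arrays ran from 4.98 to 7.58 and its number 2 arrays from 6.31 to 9.73. Its drying difference was -0.04 ± 0.35 (adjusted p = 0.949). IAA19 differed by 0.95 ± 0.17 between numbers 3 and 1, IAA7 by 0.91 ± 0.13, IAA4 by 0.66 ± 0.12, IAA28 by -0.62 ± 0.11 and IAA17 by -0.98 ± 0.15.

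Clock genes moved with the number too. Between numbers 3 and 1 the morning genes CCA1 and LHY differed by -3.39 and -3.70, and the evening genes GI, PRR5 and TOC1 by 1.84, 1.20 and 0.83. PIF4, a growth-promoting PIF, differed by 1.28, and PIF5 by -0.09. The part of the clock or of PIF4 in the values above was not tested. IAA14, called for drying, did not pass the test of the number (adjusted p = 0.721), and 7 of the 13 genes called for drying passed both tests.

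Because of this, the drying difference was also taken within each number. IAA17 differed by -0.60, -1.39 and -1.10 in numbers 1, 2 and 3, IAA14 by 1.03, 0.54 and 0.67, and ARF11 by 0.57, 0.65 and 0.80, and these 3 genes passed the test in each number alone. ARF3 differed by 0.52, 0.30 and 0.19 and missed the threshold in number 3 (adjusted p = 0.238). ARF18 differed by 0.36, 0.31 and 0.16 and also missed it in number 3 (adjusted p = 0.375). ARF1 (0.06, 0.32 and 0.22), ARF2 (0.33, 0.45 and 0.35) and ARF9 (0.19, 0.46 and 0.23) passed in number 2 alone. ARF7 differed by -0.60, -0.08 and -0.17 and was called in number 1 alone (adjusted p = 0.000734), and IAA5 by 0.31, 0.09 and 0.65 and was called in number 3 alone (adjusted p = 0.0312). IAA7 differed by -0.05, -0.69 and -0.32 and was called in number 2 (adjusted p = 0.0234). IAA8, IAA16 and ARF10 were called in no number by itself.

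**Figure D5:**
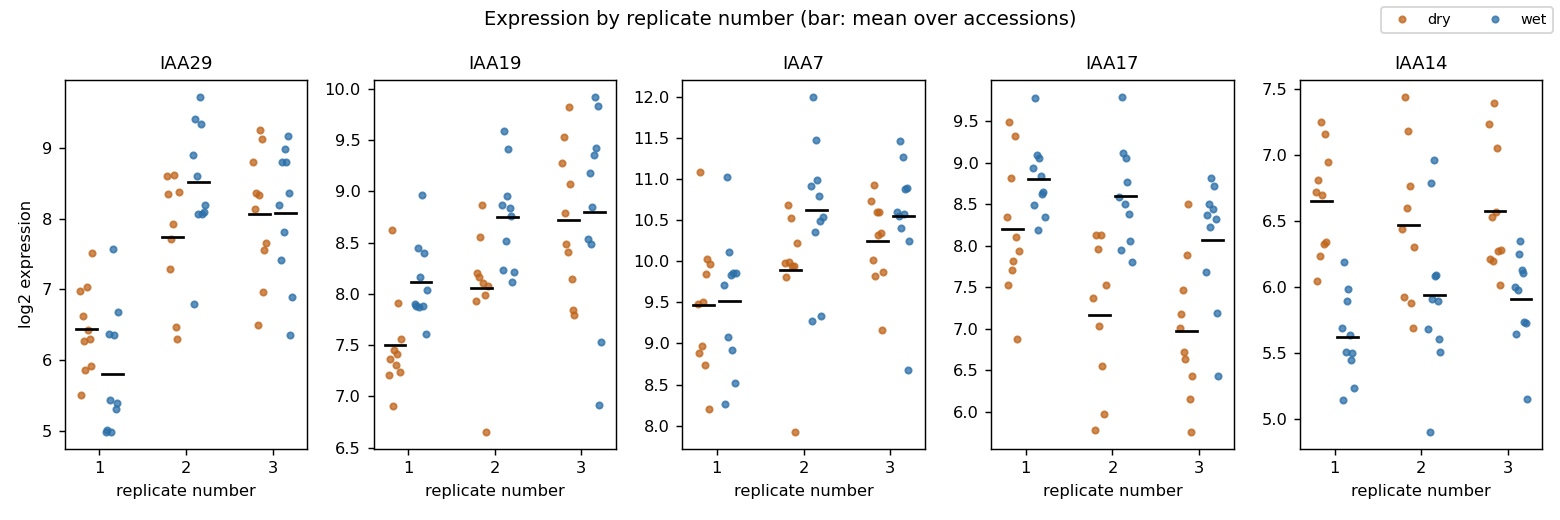
Log2 expression of IAA29, IAA19, IAA7, IAA17 and IAA14 on each array by replicate number, dry (orange) left of wet (blue), with bars at the mean over accessions. IAA29 averages 6.12 in number 1 against 8.15 and 8.08 in numbers 2 and 3, and the dry mean of IAA14 lies above its wet mean in each number, with overlapping arrays in numbers 1 to 3.

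Of 57 listed genes from elsewhere in the auxin pathway, 49 were measured, and drying raised 6 and lowered 7, with a median of 0.01, against 15.5% of all loci higher and 13.8% lower. These shares are near those of the whole table. With the replicate number as a term in the model, the counts were 11 higher and 8 lower, against 17.9% and 16.3% of all loci. Among the 6 receptors TIR1 was 0.26 ± 0.08 higher (adjusted p = 0.0120; 10 of 10 accessions) and AFB3 0.21 ± 0.08 higher (adjusted p = 0.0342). The corepressor TPL, through which Aux/IAA proteins silence their targets, was lower by -0.40 ± 0.08 (adjusted p = 0.000183; 10 of 10 accessions), 1 of 3 measured corepressors.

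Of 10 synthesis genes, 3 were lower and 1 was higher. TAA1, which starts the main route from tryptophan to auxin, differed by -0.49 ± 0.06 (dry mean 5.19, wet mean 5.68), and YUC5, one of the flavin monooxygenases that finish it, by -0.67 ± 0.07 (dry mean 4.85, wet mean 5.52). Both were lower in 10 of 10 accessions. YUC8 differed by -0.21 ± 0.08 and TAR2 by 0.18 ± 0.06. Of 13 transport genes, 2 were higher, ABCB1 by 0.28 and the efflux carrier gene PIN7 by 0.25, and 2 were lower, the influx carrier gene LAX3 at -0.61 and ABCB4 at -0.58. GH3.17, which ties auxin to amino acids, was the 1 called gene of 6 in auxin conjugation, at -0.19. GH3.17 averaged 4.23 and TAR2 4.24, near the bottom of the scale, and whether they were expressed was not tested. Among 11 measured auxin-induced targets outside the families, SAUR14 alone was called, at 0.69 ± 0.12. PIF4 was 0.91 ± 0.21 higher in dry leaves (adjusted p = 0.00104; 10 of 10 accessions), and PIF5 differed by 0.05.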

How the data were processed

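Each array measured total RNA of rosette leaves. The deposited table gives each locus a log2 value on every array. MAS5 and RMA appear in the submitters' processing notes with no version, role or order. The platform, the assignment of probes and the genome build were not given in the sources used here. Values were used as deposited, with 0 columns unused. For 20728 loci a limma 3.58.1 model (R 4.3.3, lmFit and eBayes, 20 group means, 39 residual and 1.96 prior degrees of freedom) gave dry minus wet averaged over accessions, within each accession, the interaction F test and the accession F test; a fit with replicate number gave the number's F test. P-values were adjusted by Benjamini-Hochberg over all loci and called under 0.05. Genes were named through reference assembly TAIR10.1 (20546 loci matched), with IAA or ARF names kept where it uses others. Arrays carry no read depth, so their number limits the precision, and the series' design text calls the replicates biological without saying how they were grown. The members and lists were chosen with earlier results of these data known. Given in full were at most 14 members called for drying, at most 6 for the interaction and at most 8 among accessions, the 3 neighbouring pairs and at most 4 called pathway genes per role; the uncalled Aux/IAA and ARF genes and the genes of the replicate number were added after their values were seen. The tests of drying and interaction were run on simulated data with independent noise per array and no effect of the replicate number. That check does not cover arrays that move together with the number. Alternatives were a replicate block, each number alone, centred medians, quantile normalization, dim loci left out, limma-trend, array weights and leaving out each array.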

Additional observations from a re-analysis of the deposited data

Results flagged for a closer look

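IAA11 (AT4G28640) differed in opposite directions in 2 accessions. In Bur-0 dry minus wet was 0.453, with dry arrays at 5.34, 5.28 and 5.35 and wet arrays at 4.98, 4.93 and 4.70. In SQ-8 it was -0.405, with dry arrays at 4.48, 4.65 and 4.58 and wet arrays at 5.20, 4.67 and 5.06. All dry arrays lay on one side of all wet arrays in both, although SQ-8 dry 2 and wet 2 differed by little. The adjusted p was 0.0320 in Bur-0 and 0.0368 in SQ-8. The difference between these accessions alone was not tested, and the interaction over all accessions did not pass (adjusted p = 0.219).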

How the results depend on the processing

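IAA14, IAA17 and ARF11 kept their direction and their call under each of 9 alternatives and without any 1 array, with mean differences of 0.71 to 0.77, -1.08 to -0.97 and 0.63 to 0.71 when an array was left out. The calls of IAA16 and ARF10 were lost most easily: IAA16 without any 1 of 32 arrays (among them all wet arrays of number 1), with centred medians (adjusted p = 0.0597), with quantile normalization (0.0587) and with array weights (0.0891), and ARF10 without any 1 of 38 arrays (among them all wet arrays of number 1 and dry arrays of number 3) and with limma-trend (0.0531). The causes were not tested. Dry and wet arrays of the same replicate number deviated together in 24 of 29 pairs (correlation over 0.1, from -0.20 to 0.56), not in every one, so the numbers were not taken to pair the samples. As a hint from the data and not the design, 50 of 59 arrays correlated best with their own number, and the median correlation between groups was 0.305 for the same number and -0.136 for different numbers. With a replicate block, 3 Aux/IAA genes were lower (IAA7 and IAA19 beside IAA17; 16.3% of all loci were lower), and the members called were 2 in Ws-2, 7 in Bur-0, 1 in HR-5, 3 in Ler and 2 in Col. For the pathway list, the replicate block was an alternative chosen after seeing the data. There 11 genes were higher and 8 lower, against 17.9% and 16.3% of all loci. The 13 called without the block were among them, and the block added AUX1, ABCB19, GH3.6, SAUR16, TPR2 and TPR4. With it the clock genes LHY, RVE8, TOC1 and GI also passed for drying (adjusted p = 2.56e-07, 0.0270, 0.0104 and 0.000463), and without it they did not (0.304, 0.449, 0.0862 and 0.173). With number 1 alone, 2 Aux/IAA genes were higher and 3 lower and 3 ARF genes higher, and IAA2 turned to 0.016. With number 2 alone, 1 Aux/IAA gene was higher and 3 lower, 0 ARF genes were lower, the ARF median was 0.19 and IAA1 turned to -0.14. With number 3 alone, 2 Aux/IAA and 1 ARF gene were higher and 0 ARF genes lower, and IAA2 and IAA3 turned to 0.13 and 0.13. Fewer arrays entered each of these fits. With centred medians 1 member was called in Bur-0 and 1 in SQ-8. With dim loci left out, 2 Aux/IAA genes were lower and 1 member was called in Ws-2. With limma-trend 1 ARF gene was lower. The array weights ran from 0.225 to 31.7, and their estimation stopped before it converged. With them 5 Aux/IAA genes were lower and 5 members were called for the interaction. The members called were then 3 in Ws-2, 1 in Ts-1, 5 in HR-5, 5 in SQ-8 and 15 in Ler. Under the alternatives, shares of all loci were taken only for drying averaged over accessions with the block. The other counts, also those with an array left out, have no such share beside them and do not set the members apart. Leaving out 1 array gave 3 to 4 Aux/IAA genes higher, 1 to 4 lower, 6 to 6 ARF genes higher and 1 to 2 lower, and medians of -0.04 to -0.003 for Aux/IAA and 0.01 to 0.05 for ARF. It gave 0 to 1 members in Ws-2, 0 to 4 in Bur-0, 0 to 4 in SQ-8, and 0 to 1 in each of HR-5, NFA-10, Ler and Col. It gave 20 to 26 for accession, 0 to 0 for the interaction and 21 to 23 for the number, and IAA2 ran from -0.094 to 0.064, turning in 15 cases. Scaling moved the share of called loci that were higher in dry leaves between 52.8%, 48.6% and 50.1% (as deposited, centred, quantile).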
